A study of Mus musculus with 6 samples.

Results

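The tricarboxylic acid (TCA) cycle, the steps that bring pyruvate into it and the itaconate branch were followed through 36 mouse genes, of 41549 in the deposited table, in bone marrow-derived macrophages (BMDMs) in which a tRNA fragment had been blocked. The 36 genes were chosen by name for their enzymatic role, with earlier results of these data known. They were Acod1 for itaconate, 8 genes of citrate and isocitrate and 6 of 2-oxoglutarate and succinyl-CoA. A further 7 ran from succinate to oxaloacetate, 10 were of pyruvate entry and 4 of side entries. Of these 36 genes, 35 were among the 11933 genes with enough reads to be tested. The cells came from the bone marrow of adult wild type C57Bl/6 N mice, were differentiated with M-CSF, transfected while still naïve, and then polarized to M2 macrophages with IL-4 and IL-13. The 3 Ctr libraries received a locked nucleic acid inhibitor control, and the 3 αGlu libraries an antisense inhibitor of 5′tRF-Glu(CTC), the fragment cut from the 5′ end of glutamate tRNA. Both groups were otherwise described as treated alike. The comparison asks which of these transcripts differ in M2 macrophages when the fragment is blocked. The fragment itself is too short for these mRNA libraries and was not measured in them, so the block cannot be checked here.

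The TCA cycle oxidises acetyl-CoA in mitochondria and passes the electrons to the respiratory chain. Pyruvate reaches it through the mitochondrial pyruvate carrier and the pyruvate dehydrogenase complex, which the Pdk kinases switch off by phosphorylation and the Pdp phosphatases switch on. In macrophages the cycle is known for its dependence on activation: alternatively activated cells run it as a whole, while cells given lipopolysaccharide induce Acod1, the mitochondrial enzyme that decarboxylates cis-aconitate to itaconate, and divert carbon from it.

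The oligonucleotide defines the contrast and is shown with its target, in which capitals mark the 20 bases complementary to it. The target is the stretch listed for the inhibitor, and the study describes the fragment in islet cells as longer. Both are written as DNA letters, 5′ to 3′.
Antisense inhibitor: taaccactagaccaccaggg
Targeted 5′ tRNA fragment: tCCCTGGTGGTCTAGTGGTTA
The 4 members called when the library αGlu 1 was left out (adjusted p below 0.1, log2 fold change beyond 1 in either direction), Acod1, Pdk1, Pdk3 and Idh1, are shown with the 250 bases before their RefSeq start on GRCm38.p6, to let the upstream sequence be read beside their values. Capitals mark matches to TATAAA, the TATA box, and to ACGTG, the core bound by hypoxia-inducible factors; both strands were searched.
Acod1 (chr14:103046762-103047011, plus strand): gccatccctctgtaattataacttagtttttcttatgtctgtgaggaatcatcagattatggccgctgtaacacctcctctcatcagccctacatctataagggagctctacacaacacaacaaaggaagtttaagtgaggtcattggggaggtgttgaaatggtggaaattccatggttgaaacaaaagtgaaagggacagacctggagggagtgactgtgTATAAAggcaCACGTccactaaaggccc
Pdk1 (chr2:71872974-71873223, plus strand): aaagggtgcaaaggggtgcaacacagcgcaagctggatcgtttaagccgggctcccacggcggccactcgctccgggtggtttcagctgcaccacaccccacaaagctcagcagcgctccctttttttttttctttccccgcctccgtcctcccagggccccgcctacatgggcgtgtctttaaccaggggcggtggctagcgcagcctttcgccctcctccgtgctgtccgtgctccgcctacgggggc
Pdk3 (chrX:93832151-93832400, minus strand): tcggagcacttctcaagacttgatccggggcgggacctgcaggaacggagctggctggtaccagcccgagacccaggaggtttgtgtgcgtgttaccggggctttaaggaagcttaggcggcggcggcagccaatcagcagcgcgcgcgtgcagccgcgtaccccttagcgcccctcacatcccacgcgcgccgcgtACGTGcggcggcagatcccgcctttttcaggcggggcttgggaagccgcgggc
Idh1 (chr1:65186480-65186729, minus strand): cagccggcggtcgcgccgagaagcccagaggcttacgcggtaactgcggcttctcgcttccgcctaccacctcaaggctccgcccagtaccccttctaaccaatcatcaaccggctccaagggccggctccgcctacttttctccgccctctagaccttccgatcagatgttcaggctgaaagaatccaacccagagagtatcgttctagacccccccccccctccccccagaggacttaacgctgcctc
The Acod1 window held TATAAA 28 bases and ACGTG, on the opposite strand, 18 bases before the start. The Pdk3 window held ACGTG 53 bases before it, and the Pdk1 and Idh1 windows held neither. Over the 32 members with a promoter in the table, all of their starts searched (Pdp1, Sdhc, Me2 and Idh3a had none), ACGTG was found in 9 genes and lay in 16.6% of all 32851 promoters; TATAAA was found in Acod1 and Got2 and lay in 12.4%. The AP-1 motif TGANTCA (6.75% of all promoters) matched no member. Members were counted by gene over their 41 promoters, and the percentages by single promoter, so these are not on the same scale. GENCODE places the start of Acod1, Pdk3 and Idh1 somewhat inside these windows, so the distances hold for the RefSeq start only. A match describes letters in a window and is not a binding site.

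The libraries held 17912831 to 30386653 exon reads each. Values given as CPM are counts scaled to the library size after TMM normalization, and a log2 fold change is αGlu over Ctr with its standard error (SE) from edgeR's quasi-likelihood fit. One library, αGlu 1, stood apart from the rest of its group: across genes its log2 CPM had an r of 0.966 to 0.982 with each Ctr library and of 0.929 with αGlu 2 and with αGlu 3, which had 0.992 with each other. The count of members that passed is therefore given with and without it, and the fold change without it for some members only. It was left out after its values were seen. The p-values without it rest on αGlu 2 and αGlu 3, which resemble each other, and describe these libraries rather than test independently. Macrophage markers were present throughout (9 of 9 tested, summed 12107 to 13644 CPM in Ctr and 12819 to 18975 in αGlu), but not at 1 level. Without αGlu 1, 4 of them passed an adjusted p of 0.1 higher and 3 lower in edgeR (23.5% and 25.6% of all genes). Markers of the IL-4 and IL-13 response summed to 2871 to 4557 CPM in Ctr and 4068 to 7011 in αGlu, and did not move 1 way. Of the 7 tested, Retnla (245 to 539.6 CPM in Ctr, 101, 0.0315 and 0.0367 in αGlu) and Mgl2 (66.3 to 87.9 and 10.6, 0.504 and 2.35) were lower in every αGlu library, and Arg1 (24.3 to 45.2 and 23.5, 1886 and 1792), Mrc1 (771 to 948 and 840.3, 1513 and 2379) and Ccl24 (0.251 to 0.636 and 0.229, 9.07 and 16.2) were above Ctr in αGlu 2 and αGlu 3. Without αGlu 1 these 5 were called, 3 higher and 2 lower (8.05% and 10.5% of all genes), and Chil3 and Pdcd1lg2 were not. Ccl17 was tested by edgeR only in that fit, and was called lower (-3.03, adjusted p = 0.0481). It was at 0.293 to 0.954 CPM in Ctr and 0.115, 0.126 and 0 in αGlu. With 6 libraries edgeR called 0 of the 7, with 3 at an unadjusted p under 0.05 (24.7% of all genes). Of the 7, DESeq2 passed 2 higher and 1 lower (7.77% and 8.13% of all genes). Lymphocyte markers summed to at most 0.189 CPM, dendritic cell markers to at most 2.22, mast cell and basophil markers to at most 3.79 and fibroblast markers to at most 7.18. In bulk RNA, fewer cells of a type and less RNA per cell cannot be told apart. The libraries of a group were described as independent experiments, and replicates of primary cells in the study as preparations from separate animals; the labels do not tie a library to a mouse.

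With all 6 libraries, no member passed an adjusted p of 0.1 in edgeR, and neither did any other gene (0% of 11933). DESeq2 passed 15.9% of its genes at that threshold, and called 8.16% when an absolute log2 fold change above 1 was also required. The smallest edgeR adjusted p was 0.149 over all genes and 0.156 among members. At an unadjusted p under 0.05 stood 11 members, 3 higher (Acod1, Suclg2, Pdk3) and 8 lower, which is 31.4% of those tested beside 24.7% of all genes (12.7% higher and 11.9% lower). The values showed 2 patterns. In the first, 12 members (10 enzymes of the cycle or their cytosolic forms, Pdhb of pyruvate entry and Glud1 of the side entries) lay lower in every αGlu library than in any Ctr library, αGlu 1 included; in the second, Acod1, the kinases Pdk1 and Pdk3, the phosphatase Pdp1 and the dehydrogenase Idh1 stood far from Ctr in αGlu 2 and αGlu 3 and near it in αGlu 1. Members whose 3 αGlu values did not overlap the 3 Ctr values numbered 13 (37.1%), beside 30.2% of all genes; 12 of the 13 were lower (34.3% of members, against 15.9% of all genes) and 1, Acod1, was higher (14.2% of all genes). The separation was small for most of them. Of the 35 members, 30 had an absolute log2 fold change under 0.5 and only Acod1 exceeded 1, and the median was -0.10 for members and 0.016 for all genes. Which members lay lower without overlap depended in part on scaling. With library size alone, 7 stayed lower without overlap (Aco1, Cs, Glud1, Idh2, Idh3a, Mdh1, Sdhc), beside 12.9% of all genes. Dlst, Suclg1, Sdha, Mdh2 and Pdhb then overlapped, though their log2 fold changes stayed below 0. Sdhb joined Acod1 as higher without overlap (18% of all genes). The lower share of non-overlapping members was thus 92.3% with TMM and 77.8% with library size alone, and the median over all genes moved from 0.016 to 0.10.

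**Figure D1:**
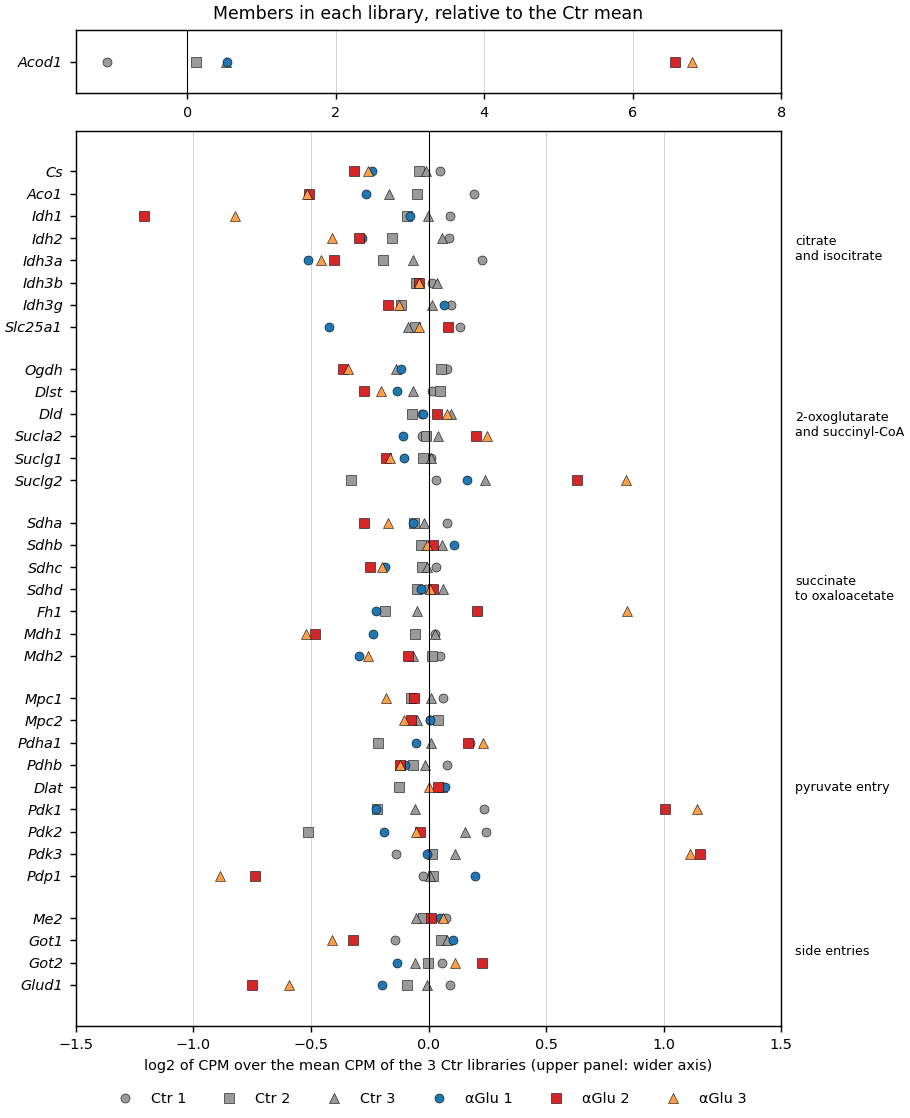
Each tested member in each library, as the log2 of its CPM over the mean CPM of the 3 Ctr libraries, grouped by role, with Acod1 on a wider axis in the upper panel. Grey symbols are Ctr and coloured symbols αGlu 1 to 3; for Pdk1, Pdk3, Pdp1, Idh1 and Acod1 the αGlu 2 and αGlu 3 symbols lie far from the Ctr symbols and the blue αGlu 1 symbol lies near them, while Cs, Idh3a and Mdh1 have all 3 αGlu symbols to the left.

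Acod1 (ENSMUSG00000022126, chr14:103046977-103056573, plus strand), the itaconate-forming enzyme, was the member with the widest range. Its Ctr values were 3.63, 8.40 and 11.1 CPM and its αGlu values 11.2, 732 and 858 CPM, from 80, 201 and 239 reads in Ctr and 195, 23253 and 23390 in αGlu. The libraries αGlu 2 and αGlu 3 were far above all Ctr libraries, and αGlu 1 stood barely above the highest of them. The log2 fold change was 6.11 ± 1.56 (SE; unadjusted p = 0.00768, adjusted p = 0.156, edgeR) and did not pass. DESeq2 on the same libraries gave an adjusted p of 0.000507, the 1 member called by that test (4.23% of all genes were called higher). Without αGlu 1, Acod1 rose by 6.68 ± 0.44 on the log2 scale (edgeR adjusted p = 0.000137), that is 103 times the Ctr mean in CPM. Per length, it had 1.30, 2.85 and 3.88 RPKM in Ctr and 3.89, 273 and 328 RPKM in αGlu. By RPKM it ranked 33 among the 36 members in Ctr by mean, 31 in αGlu 1 and 1 in both αGlu 2 and αGlu 3. It made up 0.132 to 0.415% of the summed RPKM of the members in Ctr, 0.448% in αGlu 1, 24.8% in αGlu 2 and 27.4% in αGlu 3. Its RPKM was 0.0383 to 0.122 times that of Cs, the enzyme that opens the cycle, in Ctr and 0.144, 9.95 and 11.2 times in αGlu.

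Genes known to be induced with Acod1 in activated macrophages, or to act upstream of it, mostly showed the same split of αGlu 1 from αGlu 2 and αGlu 3. Of 13 such genes, 12 were tested with 6 libraries. The list was chosen with earlier results of these data known, so its shares beside those of all genes are a description only. In edgeR 0 passed an adjusted p of 0.1, with 8 higher at an unadjusted p under 0.05, beside 12.7% of all genes. DESeq2 passed 7, all of them higher, beside 7.77% of all genes. Without αGlu 1, 10 of the 12 passed in edgeR, all higher, beside 23.5% of all genes. Il6, tested by edgeR only in that fit, also passed higher (2.86, adjusted p = 0.0197). Il1b, Nos2 and Hif1a were chosen for values after these were seen. The cytokine Il1b was at 0.454, 0.293 and 0.278 CPM in Ctr and 0.0574, 322 and 345 in αGlu. Nos2, the inducible nitric oxide synthase, was at 5.68, 11 and 6.73 CPM in Ctr and 10.7, 531 and 245 in αGlu. Both were at Ctr level or below in αGlu 1. Hif1a, a transcription factor of the hypoxia response, was at 87.7, 82.8 and 84.7 CPM in Ctr and 94.6, 437 and 442 in αGlu. It lay above Ctr in every αGlu library, by little in αGlu 1. The interferon-responsive factors Irf1 (0.060 ± 0.26 log2, edgeR adjusted p = 0.894) and Irf8 (0.077 ± 0.097, 0.625) overlapped Ctr. Neutrophils also express Acod1, and their markers were checked as a list: of 12, 4 were tested, their sum was 129 to 211 CPM in Ctr and 241 to 636 in αGlu, and Ly6g and Retnlg were at 0 in all libraries. The marker that was higher in every αGlu library was Csf3r (103 to 158 CPM in Ctr, 183 to 607 in αGlu), which macrophages express too. Without Csf3r, the list summed to 26.6 to 69.9 CPM in Ctr and 28.2 to 57.3 in αGlu, most of it Mmp8 (21.7 to 63 and 26.7 to 54). The part of these cells in the Acod1 values was not tested.

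**Figure D2:**
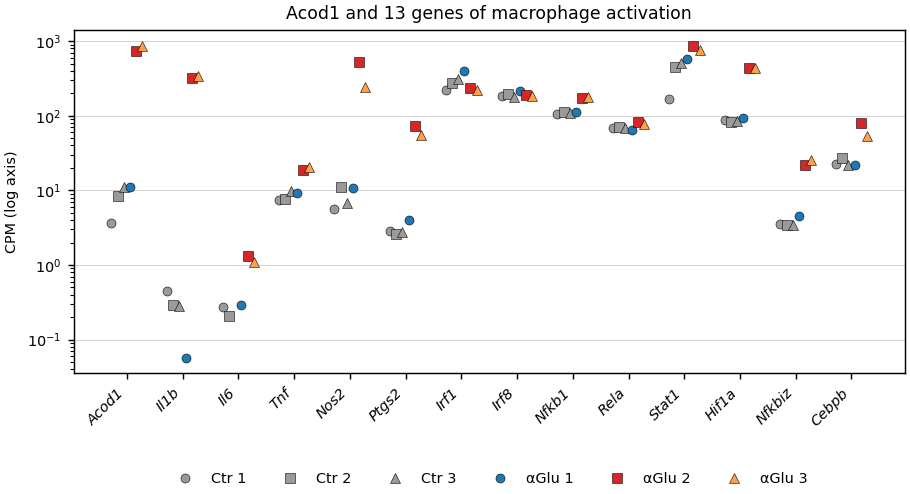
CPM of Acod1 and of 13 genes linked to it in macrophage activation, in each library, on a log axis; the 1 library with no read of Il6 (Ctr 3) has no symbol there. Il1b, Nos2, Ptgs2, Hif1a and Nfkbiz have their αGlu 2 and αGlu 3 symbols well above the other 4 libraries, as Acod1 does, while Irf1 and Irf8 do not.

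Among the 8 genes that make, move or oxidise citrate and isocitrate, all 8 had a log2 fold change below 0 with 6 libraries, from -0.63 to -0.040 (median -0.30), and 4 did not overlap Ctr (15.9% of all genes lay lower without overlap); the sign turned with library size alone for Idh3b and Idh3g. Without αGlu 1, 5 fell at an adjusted p under 0.1 (Cs, Aco1, Idh1, Idh2, Idh3a), beside 25.6% of all genes. Cs, the citrate synthase, was at 209, 197 and 200.2 CPM in Ctr and 171, 162 and 169 in αGlu, a log2 fold change of -0.27 ± 0.080 (edgeR adjusted p = 0.160). Aco1, the cytosolic aconitase, was at 123, 104 and 95.3 CPM in Ctr and 89.1, 75.4 and 74.9 in αGlu (-0.43 ± 0.13, adjusted p = 0.160). For both, the 3 αGlu libraries lay below the lowest Ctr library. For Aco1, αGlu 1 was nearer to that Ctr library than to αGlu 2 and αGlu 3. The isocitrate dehydrogenases did not move as 1 group. Idh3a, the catalytic subunit of the NAD-dependent enzyme, was at 55.4, 41.4 and 45.2 CPM in Ctr and 33.2, 35.8 and 34.5 in αGlu (-0.46 ± 0.12, edgeR adjusted p = 0.156). Its partner subunits Idh3b (-0.040 ± 0.068) and Idh3g (-0.074 ± 0.099) lay close to 0 and overlapped Ctr. The Idh3a to Idh3b ratio in RPKM was 0.280 to 0.358 in Ctr and 0.223, 0.240 and 0.232 in αGlu, with no overlap. Idh2, the mitochondrial NADP-dependent enzyme, was at 50.3, 42.6 and 49.2 CPM in Ctr and 38.9, 38.6 and 35.6 in αGlu (-0.33 ± 0.090, adjusted p = 0.157), again lower in each αGlu library and as far in αGlu 1 as in αGlu 2. Idh1, the cytosolic NADP-dependent enzyme and the member of this role with the highest RPKM in Ctr (137, 115 and 126), showed the other pattern. It was at 406, 357 and 380.1 CPM in Ctr and 360.3, 165 and 215 in αGlu, so that αGlu 1 lay within the Ctr range and αGlu 2 and αGlu 3 well below it. The log2 fold change was -0.63 ± 0.29 with 6 libraries (edgeR adjusted p = 0.235), and without αGlu 1 Idh1 fell by 1.01 ± 0.14 (adjusted p = 0.00223), the 1 member called lower in that fit. Slc25a1, the citrate carrier, was lowest in αGlu 1 (30.4 CPM) and within the Ctr range of 38.4 to 44.7 in αGlu 2 and αGlu 3.

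The 6 genes from 2-oxoglutarate to succinate divided evenly by sign, 3 higher and 3 lower with 6 libraries, and their median log2 fold change was -0.060. Ogdh, the first subunit of the 2-oxoglutarate dehydrogenase complex and the member of this role with the highest RPKM in Ctr (29.9, 27.9 and 25.2), was at 175, 171 and 150.0 CPM in Ctr and 153, 129 and 131 in αGlu. Its αGlu 1 value lay within the Ctr range and the other two below it (-0.27 ± 0.11, edgeR adjusted p = 0.205). Dlst, the second subunit, picked like Mdh2 below with its values in view, was lower in each αGlu library (106, 96.5 and 101 CPM against 118, 121 and 112 in Ctr), while Dld, the subunit shared with pyruvate dehydrogenase, overlapped Ctr (0.031 ± 0.079). The succinyl-CoA synthetase genes went different ways. Suclg1, the common subunit, was lower in each αGlu library (-0.15 ± 0.062), Sucla2, the ADP-forming subunit, was above Ctr in αGlu 2 and αGlu 3 and below it in αGlu 1, and Suclg2, the GDP-forming subunit, was at 10.9, 8.44 and 12.5 CPM in Ctr and 11.9, 16.4 and 19 in αGlu (0.57 ± 0.22, unadjusted p = 0.0423, edgeR adjusted p = 0.192). Suclg2 and Sucla2 were chosen for values after these were seen. Without αGlu 1, Suclg2 rose by 0.73 ± 0.17 (adjusted p = 0.0171) and Sucla2 by 0.22 ± 0.066 (0.0397), while Ogdh, Dlst and Suclg1 fell. The RPKM ratio of Sucla2 to Suclg2 was 4.39 to 6.29 in Ctr and 4.18, 3.75 and 3.35 in αGlu. Of the 50-base words of Suclg2 transcripts, 15.96% also occur in transcripts of Gm15163, so its count is less certain.

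From succinate to oxaloacetate, 7 genes had log2 fold changes from -0.41 to 0.34. Of these, 4 (Sdha, Sdhc, Mdh1, Mdh2) were lower in each αGlu library, beside 15.9% of all genes. With library size alone, Sdha and Mdh2 overlapped Ctr. Mdh1, the cytosolic malate dehydrogenase, was at 180.5, 170.0 and 181 CPM in Ctr and 150.2, 127 and 123 in αGlu (-0.41 ± 0.11, unadjusted p = 0.00803, edgeR adjusted p = 0.156), and it fell by 0.51 ± 0.080 without αGlu 1 (adjusted p = 0.00372). The αGlu 1 value lay between the Ctr libraries and the other two αGlu libraries. Mdh2, the mitochondrial enzyme, was at 171, 167 and 158 CPM in Ctr and 135, 156 and 138 in αGlu (-0.21 ± 0.093, edgeR adjusted p = 0.221), and here αGlu 1 was the lowest library. The 4 succinate dehydrogenase subunits, which form complex II of the respiratory chain, had log2 fold changes between -0.21 and 0.040. Sdhd, a membrane anchor and the member of this role with the highest RPKM in Ctr (97.9, 90.5 and 101), was at 129, 125 and 135 CPM in Ctr and 127, 132 and 131 in αGlu (-0.00079 ± 0.074), with the αGlu values inside the Ctr range. Sdhc, the other anchor, was at 91, 87.4 and 88.7 CPM in Ctr and 78.3, 74.9 and 77.6 in αGlu (-0.21 ± 0.065, edgeR adjusted p = 0.161), lower in every αGlu library by a narrow but even margin. Its RPKM ratio to Sdhb, the iron-sulphur subunit, was 0.415 to 0.451 in Ctr and 0.354, 0.360 and 0.380 in αGlu, without overlap. Sdha, the flavin subunit, had a log2 fold change of -0.17 ± 0.099 and Sdhb of 0.040 ± 0.079. Fh1, the fumarase, was at 38.6, 29.4 and 32.3 CPM in Ctr and 28.7, 38.6 and 60 in αGlu, and its log2 fold change of 0.34 ± 0.28 rested on αGlu 3: it was 0.013 without that library. Fh1 was chosen for its values after these were seen.

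At pyruvate entry the carrier and the catalytic subunits of pyruvate dehydrogenase had log2 fold changes from -0.12 to 0.12, and of the genes of its regulators Pdk1, Pdk3 and Pdp1 stood apart in αGlu 2 and αGlu 3. Mpc1, one of the 2 carrier subunits and the member of this role with the highest RPKM in Ctr (43.3, 37.5 and 41), was at 96.4, 87.9 and 93.2 CPM in Ctr and 88.6, 88.6 and 81.6 in αGlu (-0.10 ± 0.077). Mpc2, its partner, was at 17.3 to 19.1 CPM over all 6 libraries. The groups overlapped for both. The complex subunits Pdha1 (0.12 ± 0.13), Pdhb (-0.12 ± 0.067) and Dlat (0.038 ± 0.078) had edgeR adjusted p-values of 0.562, 0.312 and 0.767, and only Pdhb was lower in each αGlu library. Among the kinases, Pdk1 was at 46, 33.6 and 37.5 CPM in Ctr and 33.4, 78.4 and 86 in αGlu. Pdk3 was at 10.9, 12.2 and 13 CPM in Ctr and 12, 26.8 and 26 in αGlu. In both, αGlu 1 sat with the Ctr libraries, and the mean of αGlu 2 and αGlu 3 was above the Ctr mean (2.11 times for Pdk1 and 2.19 for Pdk3). With 6 libraries neither passed: the log2 fold change was 0.76 ± 0.36 for Pdk1 (edgeR adjusted p = 0.240) and 0.85 ± 0.31 for Pdk3 (unadjusted p = 0.0341, adjusted p = 0.181). Without αGlu 1, Pdk1 rose by 1.07 ± 0.14 (adjusted p = 0.00164) and Pdk3 by 1.13 ± 0.098 (0.000377). Pdk2 was at 11.1, 6.56 and 10.4 CPM in Ctr and 8.20, 9.13 and 9.02 in αGlu (-0.090 ± 0.21), and its αGlu values lay inside the Ctr range. Pdk4 had no read in 5 libraries and 1 read in αGlu 2, so it was not tested, and a count of 0 in the shallowest library allows up to 0.172 CPM (3 reads, counting error only). Pdk1 made up 36.5 to 43.2% of the summed RPKM of the 4 kinases in Ctr and 37.1 to 45.9% in αGlu, Pdk3 31.2 to 42.6% and 40.5 to 44.6%, and Pdk2 18.6 to 25.6% in Ctr, 22.4% in αGlu 1 and 11.8 to 12.3% in the other two. By RPKM the kinases with the larger shares were thus Pdk1 and Pdk3 in every library. By counts Pdk1 made up 61.5 to 71%, and in Ctr 1 Pdk2 (16.3%) and Pdk3 (16.1%) lay close together, with Pdk2 the higher. Pdp1, the phosphatase that opposes them, chosen for its values after these were seen, was at 68.3, 70.4 and 69.9 CPM in Ctr and 79.8, 41.6 and 37.6 in αGlu. It was highest of all in αGlu 1 and lowest in αGlu 2 and αGlu 3, so the 6-library fold change was -0.39 ± 0.29 (edgeR adjusted p = 0.404); without αGlu 1, Pdp1 fell by 0.82 ± 0.077 (adjusted p = 0.000518). The RPKM ratio of Pdk1 to Pdp1 was 0.276 to 0.390 in Ctr and 0.242, 1.09 and 1.33 in αGlu.

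**Figure D3:**
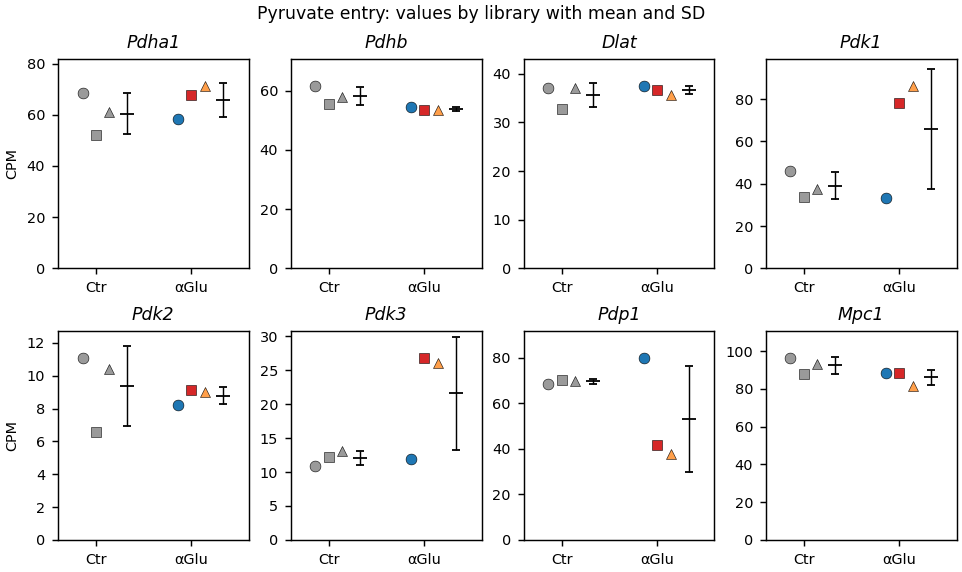
CPM of 8 genes of pyruvate entry in each library, with the mean and SD of the 3 libraries of each group beside the symbols; symbols are as in the plot of members by library and axes start at 0. Pdk1, Pdk3 and Pdp1 have a wide αGlu SD because αGlu 1 (blue) lies apart from αGlu 2 and αGlu 3, and the other 5 genes do not.

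Of the 4 side entries, Glud1, the glutamate dehydrogenase that feeds 2-oxoglutarate into the cycle and the one with the highest RPKM in Ctr (55.4, 46.3 and 50.7), was at 249, 219 and 233 CPM in Ctr and 204, 139 and 155 in αGlu. All 3 αGlu libraries lay below Ctr, αGlu 1 by the least (-0.50 ± 0.16, unadjusted p = 0.0219, edgeR adjusted p = 0.165). Glud1 fell by 0.67 ± 0.10 without αGlu 1 (adjusted p = 0.00300). The aspartate aminotransferases Got1 (cytosolic, -0.19 ± 0.16) and Got2 (mitochondrial, 0.076 ± 0.11) and the malic enzyme Me2 (0.040 ± 0.069) overlapped Ctr, and without αGlu 1 only Got1 among these 3 passed (a log2 fold change of -0.37 ± 0.096, adjusted p = 0.0247). The RPKM ratio of Got1 to Got2 was 2.21 to 2.79 in Ctr, 2.99 in αGlu 1, 1.74 in αGlu 2 and 1.77 in αGlu 3. Got2 shares 16.8% of its 50-base words with its pseudogene Got2-ps1, so its count is less certain. The same holds for Mpc1 (11.03%, Mpc1-ps) and Pdhb (10.9%, Gm6123). These are shares of words, not of reads.

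Per length, the members spanned a wide range. In Ctr the highest mean RPKM belonged to Idh1 (126 ± 11.2, SD, n = 3), Sdhd (96.4 ± 5.33), Mdh1 (60.8 ± 3.55), Sdha (58.2 ± 4.31) and Sdhb (57.7 ± 2.70). Mdh1, Sdha and Sdhb did not differ beyond their spread, and the lowest tested members were Pdk2 (2.72 ± 0.766), Acod1 (2.67 ± 1.30), Mpc2 (2.31 ± 0.0675) and Suclg2 (2.10 ± 0.439). Summed by role, RPKM of the citrate and isocitrate genes was 252 to 300.5 in Ctr and 249.9, 196 and 218 in αGlu, of the side entries 102 to 109.7 in Ctr and 102, 86.8 and 89.5 in αGlu. The 2-oxoglutarate genes (82.9 to 92.4), the succinate to oxaloacetate genes (328 to 364) and pyruvate entry (94.8 to 115) overlapped between groups. The deposited RPKM carries no TMM scaling. On this scale Acod1 alone outweighed each other role but succinate to oxaloacetate in αGlu 2 and αGlu 3.

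**Figure D4:**
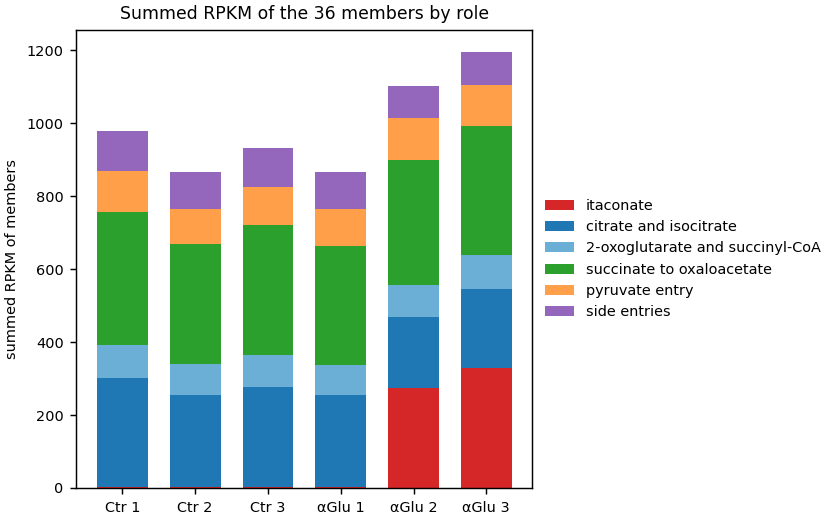
RPKM summed over the members of each role in each library, as stacked bars from 0. The 3 Ctr bars and αGlu 1 are alike in height and make-up, and in αGlu 2 and αGlu 3 a block for itaconate (Acod1, 273 and 328 RPKM) appears while the citrate and isocitrate block is smaller.

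Leaving out αGlu 1 changed the count of members that passed more than any other choice of libraries. In that fit of 5 libraries, 20 of 35 members passed an adjusted p of 0.1 (57.1%, beside 49.1% of all 12340 genes tested), 6 of them higher and 14 lower (23.5% and 25.6% of all genes), and 15 did not. The 6 that rose were Acod1, Pdk1, Pdk3, Suclg2, Sucla2 and Fh1. The 14 that fell were Cs, Aco1, Idh1, Idh2, Idh3a, Ogdh, Dlst, Suclg1, Sdha, Sdhc, Mdh1, Pdp1, Got1 and Glud1. Called with an absolute log2 fold change above 1 were 4 of 35, beside 18.6% of all genes: Acod1, Pdk1 and Pdk3 higher (8.05% of all genes) and Idh1 lower (10.5%). Their share lay below that of all genes. By values alone, αGlu 2 and αGlu 3 both exceeded all Ctr libraries in 6 members (17.1%, against 33.6% of all genes) and both lay under all of them in 18 (32.2% of all genes). The library αGlu 1 itself lay below the Ctr range in 17 members, within it in 13 and above it in 5. DESeq2 on all 6 libraries passed 9 members at an adjusted p under 0.1, beside 15.9% of all genes: Acod1 and Pdk3 higher (7.77% of all genes), and Cs, Aco1, Idh2, Idh3a, Sdhc, Mdh1 and Glud1 lower (8.13%).

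**Figure D5:**
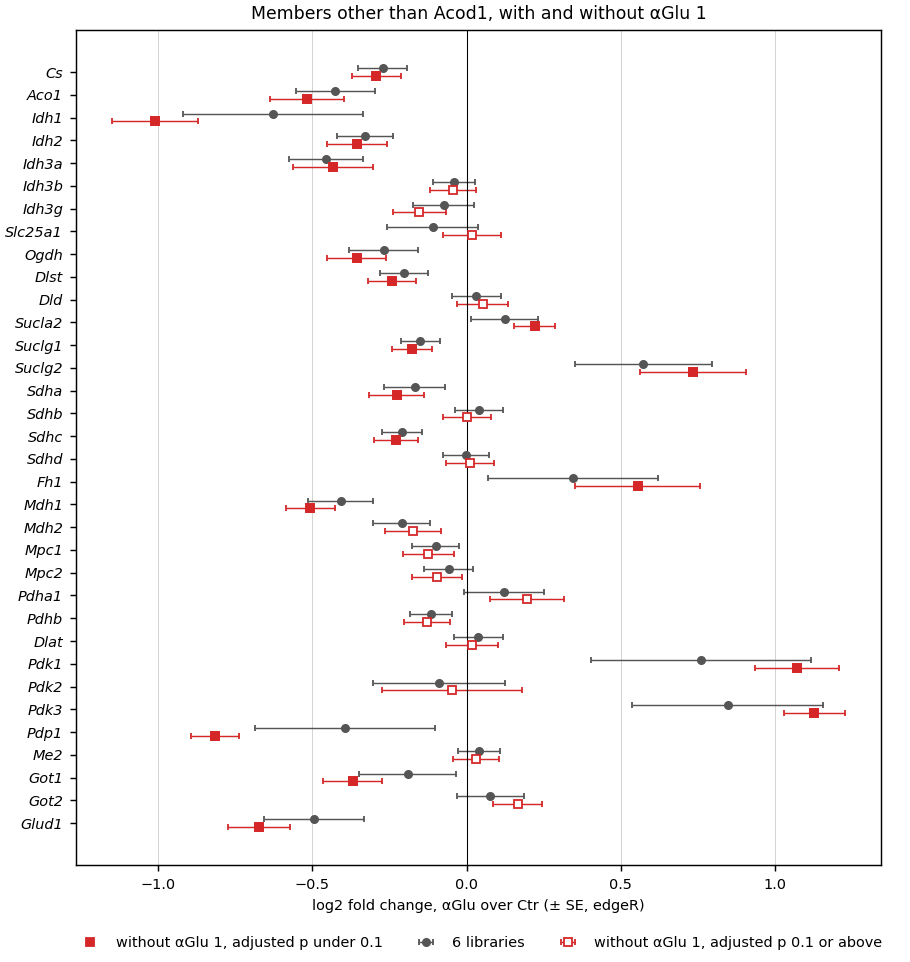
Log2 fold change of αGlu over Ctr (± SE, edgeR) for 34 tested members, Acod1 left out for its size, with all 6 libraries (grey circles) and without αGlu 1 (red squares, filled where the adjusted p was under 0.1). Leaving out αGlu 1 carries Idh1, Pdp1, Pdk1 and Pdk3 further from 0 with shorter error bars, while Cs, Idh3a and Sdhc barely move.

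A further 38 genes around the cycle (transporters, assembly factors, lactate, glutamine and malate enzymes) were counted as a list. Of these, 34 were tested. With 6 libraries, 0 passed an adjusted p of 0.1 in edgeR, and the median log2 fold change was -0.039. An unadjusted p under 0.05 was found for 2 higher and 6 lower (12.7% and 11.9% of all genes). DESeq2 passed 1 higher and 4 lower (7.77% and 8.13% of all genes). The 3 with the smallest p were lower in each αGlu library. Gpt2, the mitochondrial alanine aminotransferase, was at 17.8, 22.3 and 18.1 CPM in Ctr and 11.1, 12.1 and 11.4 in αGlu (-0.75 ± 0.12, edgeR adjusted p = 0.149). Slc1a5, a glutamine transporter, was at 48.3, 43.7 and 39.3 CPM and 29.2, 23.1 and 19.4 (-0.88 ± 0.17, adjusted p = 0.149). Slc16a1, the monocarboxylate transporter MCT1, was at 25.3, 17.6 and 20 CPM and 11.5, 12.7 and 8.58 (-0.94 ± 0.20, adjusted p = 0.152). These lay as low in αGlu 1 as in αGlu 2, or nearly so. Without αGlu 1, 8 of the list rose and 9 fell at an adjusted p under 0.1, shares close to those of all genes (23.5% and 25.6%). Among those that rose, and chosen after their values were seen, were genes of lactate: Ldha, a lactate dehydrogenase subunit, was at 518, 579 and 555 CPM in Ctr and 462, 1280.1 and 1110.4 in αGlu, and Slc16a3, the monocarboxylate exporter MCT4, at 10.9, 12.8 and 11.5 CPM in Ctr and 9.69, 163 and 145 in αGlu. In both, αGlu 1 was the lowest of the 6 libraries.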

How the data were processed

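Stranded mRNA libraries of 3 Ctr and 3 αGlu samples were sequenced by the authors, who used the QIAGEN RNA-seq Analysis Portal for read processing and deposited 1 table. The build GRCm38 comes from the submitters' processing notes. The aligner, the annotation and the handling of reads that match several genes are not given in the sources used here. The authors deposited whole-number exon counts per gene without normalization. The RPKM values that the authors deposited scale these counts by exon length and depth. The deposited TPM values, scaled by the authors to one sum in every library, were not used, and neither was the deposited CPM column, a signal in which the authors scaled counts to an effective library size of their own. Each of the 24 value columns names its library.

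Counts were tested in R 4.3.3 with edgeR 4.0.16: filterByExpr (minimum count 10, minimum total 15), TMM factors, glmQLFit and glmQLFTest with the group as the only term on all 6 libraries, two-sided, with Benjamini-Hochberg adjustment over all 11933 genes tested. Calls needed an adjusted p below 0.1 with a log2 fold change beyond 1 in either direction, thresholds that the study gives for its tRNA fragment profiles. Standard errors follow from each fold change and the F value of its test. Alternatives were DESeq2 1.42.0, library size alone, RLE factors, 2 other filters on low counts, other thresholds, a block for the replicate number, counts in place of RPKM, and each library left out in turn. Gene positions and shared 50-base words came from GENCODE M21, and promoters from RefSeq on GRCm38.p6, each searched over 250 bases before the start. Figures were drawn in Python 3.11.15 with matplotlib 3.10.9.

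The members and the lists were chosen with earlier results of these data known. Values per library are given, by a rule set with the design, for Acod1, the 8 members with the smallest unadjusted p, the Pdk family and the member with the highest Ctr RPKM of each role. Other members appear by their range, or with a remark that they were picked with their values in view. Total counts of 17912831 to 30386653 per library leave every tested member except Acod1 with at least 143 reads in each library. Counting error was not compared with the spread between libraries.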

Additional observations from a re-analysis of the deposited data

How the results depend on the processing

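Over 12 alternatives, the 35 tested members gave 420 log2 fold changes, of which 401 kept their sign and their side of the threshold, 14 changed sign, 5 newly passed and 0 no longer passed. With library size alone, the sign turned for Idh3b (0.044), Idh3g (0.0061), Sdhd (0.085) and Mpc2 (0.026), and for Sdhd also without a low-count filter (0.0023) and with a CPM above 1 in 3 libraries (0.00060). Library size alone also moved the median over all genes, from 0.016 to 0.10. Leaving out 1 library at a time, the ranges that crossed 0 were -0.030 to 0.027 for Sdhd, -0.30 to 0.059 for Pdk2, -0.0077 to 0.078 for Dld, -0.024 to 0.079 for Dlat, -0.21 to 0.018 for Slc25a1 and -0.0013 to 0.17 for Got2.

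Genes called numbered 0 with edgeR on all 6 libraries, 1119 with DESeq2 and 0 to 2290 with 1 library left out, 2290 without αGlu 1 and 0 without any other. Members called were 0 with edgeR, 1 with DESeq2 (8.16% of all genes) and 0 to 4 with 1 library left out, 4 without αGlu 1 (18.6% of all genes). Members at an unadjusted p under 0.05 were 11 with all libraries (24.7% of all genes) and 5 to 20 with 1 left out. They were 20 without αGlu 1, 5 without αGlu 2 or αGlu 3 and 6 without Ctr 1. The share of all genes at that threshold was not counted with a library left out. Without αGlu 1, 49.1% of all genes passed even an adjusted p of 0.1 in edgeR, so these counts describe the fits and not the members. The common dispersion was 0.0690 with 6 libraries and 0.0203 without αGlu 1. The cause was not tested.

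The labels give both groups replicate numbers 1 to 3. Libraries that share a number deviated from their own group mean with correlations of 0.076, 0.065 and 0.15. Between libraries with different numbers these were -0.11 to 0.046, so every same-number value was the higher, though small. Not all were above 0.1 and the labels state no pairing, so the main fit was unpaired. Whether the numbers mark pairs is not known. With the replicate number as a block, 17 genes were called, and 0 members.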
